A study of Drosophila melanogaster with 16 samples.

Results

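The genes described here are 122 noncoding RNA genes of Drosophila melanogaster that carry a CR symbol, the provisional name given to a noncoding transcript without a characterised product. They were chosen by their level: the symbol in the deposited comparison tables begins with CR and a number, CR43283 is left out, and the mean over 16 libraries is at least 5 CPM (read counts scaled to the total assigned to genes in a library). The tables hold 2364 CR genes among 16364 genes. Because the mean level chose the members, their level against the other CR genes is a description and was not tested. All 122 members passed the filter on low counts, which kept 10913 genes for testing.

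The 16 libraries were made from poly(A) RNA of NBs (type I neuroblasts, stem cells of the larval brain) and of ganglion mother cells (GMCs), their smaller daughters. All flies carried UAS-dcr2, ase-GAL4 and UAS-stinger::GFP, were raised at 25 °C and were used as wandering third-instar larvae; ase-GAL4 drives a nuclear GFP in type I NBs, and no group lacked these transgenes. NBs sorted from the brains were kept in culture for 1.5, 3 or 5 h, and a second sort separated them from the GMCs born meanwhile; the time in culture is called the age of a group below. The NB groups of 1.5, 3 and 5 h held 3 libraries each, the GMC group of 1.5 h held 3, and the GMC groups of 3 and 5 h held 2 each. The labels do not say that replicates came from separate cultures, so p-values measure the spread among libraries that may be technical repeats.

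Long noncoding RNAs are transcribed by RNA polymerase II and are often capped, spliced and polyadenylated like messenger RNAs, yet they are not translated into a known protein. Some are primary transcripts from which a microRNA hairpin is cut in the nucleus, some lie inside the intron of a coding gene, and some are antisense to one. In the developing nervous system many noncoding transcripts are expressed in a restricted set of cells. Their products are mostly unknown, so the members are ordered below by position in the Ensembl annotation of release 115: hosts of microRNAs, transcripts inside introns, transcripts whose exons overlap a coding gene, and transcripts between coding genes.

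Counts assigned to genes ranged from 6899670 to 21207182 per library. The 122 members took 0.474% to 0.864% of them, whereas CR43283 alone took 0.524% to 27.5%. Of 10 neuroblast markers 8, 7 and 5 were called lower in GMCs at 1.5, 3 and 5 h and 0, 2 and 2 higher, and of 6 genes of GMC fate and differentiation 5, 6 and 5 were called higher and none lower. The neuroblast markers called higher were wor (log2 fold change 0.75 and 1.92 at 3 and 5 h) and ase (1.38 and 1.71). Of 8 neuron markers 7, 5 and 2 were called higher in GMCs and 0, 0 and 1 lower, and their summed level was 292 to 818 CPM in NB libraries, 1120 to 1484 CPM in GMCs of 1.5 and 3 h and 5561 to 5664 CPM in GMCs of 5 h. The sum at 5 h was nearly all elav, with a mean of 5213 CPM, whereas Rbp9 was called lower in those GMCs (−1.90; edgeR adjusted p = 3.09e-05) and nSyb (−1.43), Syt1 (−1.09), brp (−0.79) and nrv3 (−0.91) had negative values that were not called. These sums moved with the GMC group in each comparison below, and their part in the results was not tested. Of 7 glia markers 3, 3 and 2 were called higher and none lower. Their sums of 307 to 465 CPM over all libraries were mostly nrv2, with group means of 321 to 391 CPM and no call. At 5 h gcm had a mean of 21.5 CPM in GMCs and 1.65 CPM in NBs (3.69; edgeR adjusted p = 2.71e-05). Sums over 6 optic lobe markers were highest in the GMCs of 5 h, at 219 and 221 CPM beside 40.7 to 133 CPM elsewhere. So were sums over 6 markers of type II lineages, at 114 and 136 CPM beside 19.3 to 80.7 CPM. By the file names each age was run on its own flow cell, so a GMC is compared with an NB within a run, whereas age and run cannot be told apart. Replicate 1 of the 5 h NBs stood apart from its group: in 64 of the 122 members its level lay nearer to the mean of the 3 h NBs than to the other 5 h NBs, which is 52.5% of the members beside 63.2% of all genes tested. For the other 5 h NB libraries it was 30 and 33 members (24.6% and 27.0%, beside 33.4% and 27.4% of all genes). In bulk samples a smaller number of cells of a type and less RNA per cell cannot be told apart.

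Most members were expressed at a low level. The median of the mean CPM was 10.6, 55 members lay under 10 CPM, and 10 reached 100 CPM. At the threshold, CR45531 with 5.10, CR46029 with 5.08 and CR44987 with 5.07 mean CPM were just inside, and CR45224 with 4.99, CR45196 with 4.97 and CR43628 with 4.93 were just outside. Taken by cell type, 100 members reached 5 CPM in the mean of the NB libraries and in that of the GMC libraries, 9 only in GMCs and 13 only in NBs, and 62 reached it in every one of the 6 group means. The genes are short and mostly simple: the exon length had a median of 1364 bases and ran from 214 to 21024, and 65 of the 121 members found in the annotation had a single exon block. The annotation calls 88 of them lncRNA and 33 asRNA, that is antisense. They lie on chromosome arms 3L (28), 3R (27), 2L (22), X (21), 2R (19) and on chromosome 4 (4). CR45557 was not found in the annotation used here. Oligo(dT) priming selects for a poly(A) stretch, but polyadenylation of each transcript was not measured, and no sequence of these genes was used here. Levels given per library below are CPM after scaling by trimmed mean of M-values (TMM).

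The highest counts belonged to CR46003 with a mean of 1359 CPM, CR45388 with 964, CR42862 with 599, CR45387 with 447 and CR44024 with 391. Per kilobase of exon the order changed. CR45387, a single exon of 306 bases, stood first with 1461 CPM per kb, followed by CR40469 with 976, CR45388 with 197, CR45242 with 168, CR44024 with 147 and CR30009 with 118. CR46003, the longest member with 21024 bases of exon, came to 64.6 CPM per kb.

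More CR genes were called higher than lower in GMCs at each age, while the calls over all genes were split about evenly. At 1.5 h edgeR's quasi-likelihood test, fitted over all genes with Benjamini-Hochberg adjustment and called at an adjusted p under 0.05, called 32 members higher in GMCs and 5 lower. Of all 10913 genes tested 8.59% were called higher and 8.97% lower at that age. At 3 h 37 members were called higher and 3 lower, beside 10.2% and 10.5% of all genes. At 5 h 46 members were called higher and 12 lower, beside 14.8% and 14.0% of all genes. Counting members whose GMC libraries all lay above or all below the NB libraries, 54, 76 and 57 lay above and 15, 12 and 19 below at the 3 ages. Such groups without overlap made up 42.6%, 50.1% and 47.9% of all genes tested. Of all genes tested 20.3%, 27.1% and 24.8% lay above and 22.4%, 23.0% and 23.1% below. The shares of members called higher were thus 26.2%, 30.3% and 37.7%, and those called lower 4.10%, 2.46% and 9.84%. The median log2 fold change of the members was 0.45, 0.69 and 0.36, beside 0.04, 0.07 and −0.12 for all genes tested, and 89, 98 and 77 of the 122 members lay above 0. Leaving CR43283 out of the scaling lowered the median of all genes at 3 h to −0.04 and that of the members to 0.58, and turned the split of all calls at 3 h from 1110 higher and 1145 lower to 925 and 1461, with 36 members higher and 5 lower. By the authors' deposited comparison of each age, members with an adjusted p under 0.05 numbered 37, 43 and 47 with a higher level in GMCs and 7, 6 and 10 with a lower one.

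**Figure D1:**
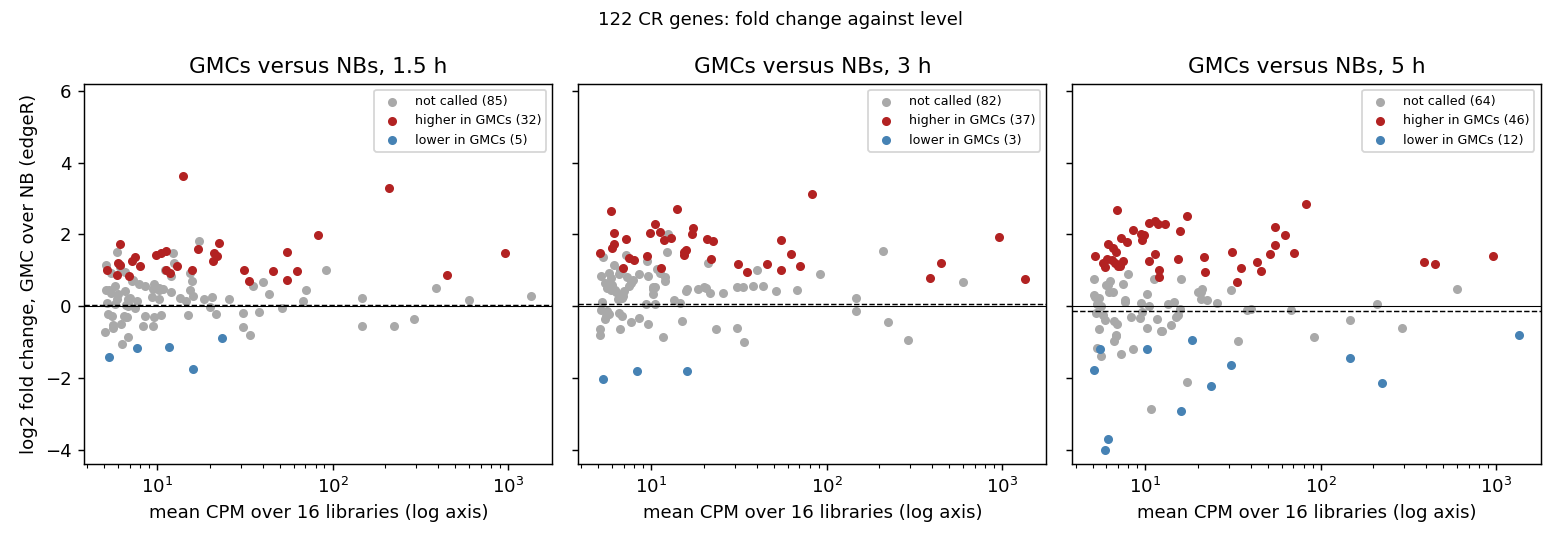
Log2 fold change of each of the 122 CR genes in GMCs over NBs (edgeR) against its mean CPM on a log axis, 1 panel for each time in culture; red points were called higher, blue points lower and grey points were not called, and the dashed line is the median of all genes tested. Red points outnumber blue ones in each panel (32 to 5, 37 to 3 and 46 to 12) and spread over the whole range of levels; CR44895, whose GMC libraries of 5 h hold no count, is drawn at −4 in the panel of 5 h.

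Leaving out each library in turn, 19 to 27 members were called higher and 3 to 5 lower at 1.5 h, 20 to 34 higher and 2 to 5 lower at 3 h, and 25 to 44 higher and 5 to 15 lower at 5 h. The higher calls fell in number in each of these fits, while the lower calls rose in some, to 5 at 3 h without replicate 1 of the NBs and to 15 at 5 h without replicate 2 of the NBs. The higher calls moved by more than 1.5 times without any library of 1.5 h but replicate 3 of the GMCs (19 to 21 members), without replicate 1 or 2 of the 3 h GMCs (20 and 23) and without replicate 2 of the 5 h GMCs (25). The lower calls did so at 1.5 h without replicate 2 or 3 of the NBs (3 each), at 3 h without replicate 1 of the NBs (5) and at 5 h without replicate 1 or 2 of the GMCs (6 and 5). At 5 h 44 were called higher and 11 lower without replicate 1 of the NBs, the library that stands apart. The threshold on the mean level itself takes in 9 members that lie under 5 CPM without the GMC libraries and 13 that lie under it without the NB libraries. Among the 113 members left without the former 27, 31 and 41 were called higher, and among the 109 left without the latter 3, 0 and 9 were called lower.

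Of the 122 members 72 were called at 1 age or more and 50 at none. Taken age by age, 30.3%, 32.8% and 47.5% of the members were called in either direction at 1.5, 3 and 5 h. Of all genes tested these shares were 17.6%, 20.7% and 28.8%. A set of 22 members was called higher at all 3 ages, which is 18.0% of the members beside 2.46% of all genes tested. By position these were 5 microRNA hosts, 7 transcripts in an intron on the opposite strand, 2 in an intron on the same strand, 5 with exons antisense to a coding gene's exons, 1 with exons overlapping on the same strand and 2 between coding genes. A single member, CR46005, was called lower at all 3 ages, which is 0.82% of the members beside 4.13% of all genes. CR46005 lies under 5 CPM without the NB libraries, and CR42719, CR43910 and CR44222 of the 22 lie under it without the GMC libraries. The 3 comparisons share no libraries. Another 13 members were called higher at 2 ages and 23 at 1 age, and 2 were called lower at 2 ages and 13 at 1 age. For calls at 1 age or more, at 1 age and at 2 ages no share over all genes was computed, so these counts are a description. CR46003 and CR44895 were called higher at one age and lower at another.

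The calls were spread unevenly over the position classes. Of 14 microRNA hosts 9, 8 and 7 were called higher in GMCs at 1.5, 3 and 5 h and 0, 0 and 1 lower. Of 27 transcripts inside an intron on the strand opposite to the coding gene 10, 10 and 16 were called higher and 1, 1 and 2 lower. The 4 transcripts inside an intron on the same strand gave 2, 2 and 3 higher and none lower. Among 36 transcripts whose exons overlap exons of a coding gene on the opposite strand 6, 7 and 10 were called higher and 3, 1 and 2 lower, and among 11 with same-strand overlap 1, 3 and 3 were called higher and 0, 1 and 1 lower. Among 29 transcripts between coding genes 4, 7 and 6 were called higher and 1, 0 and 6 lower. The remaining member, CR45557, has no annotated position. The median log2 fold change at 1.5, 3 and 5 h was 0.96, 1.60 and 0.63 for microRNA hosts and 1.01, 0.89 and 1.13 for intronic transcripts on the opposite strand. The differences between these position classes were not tested.

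**Figure D2:**
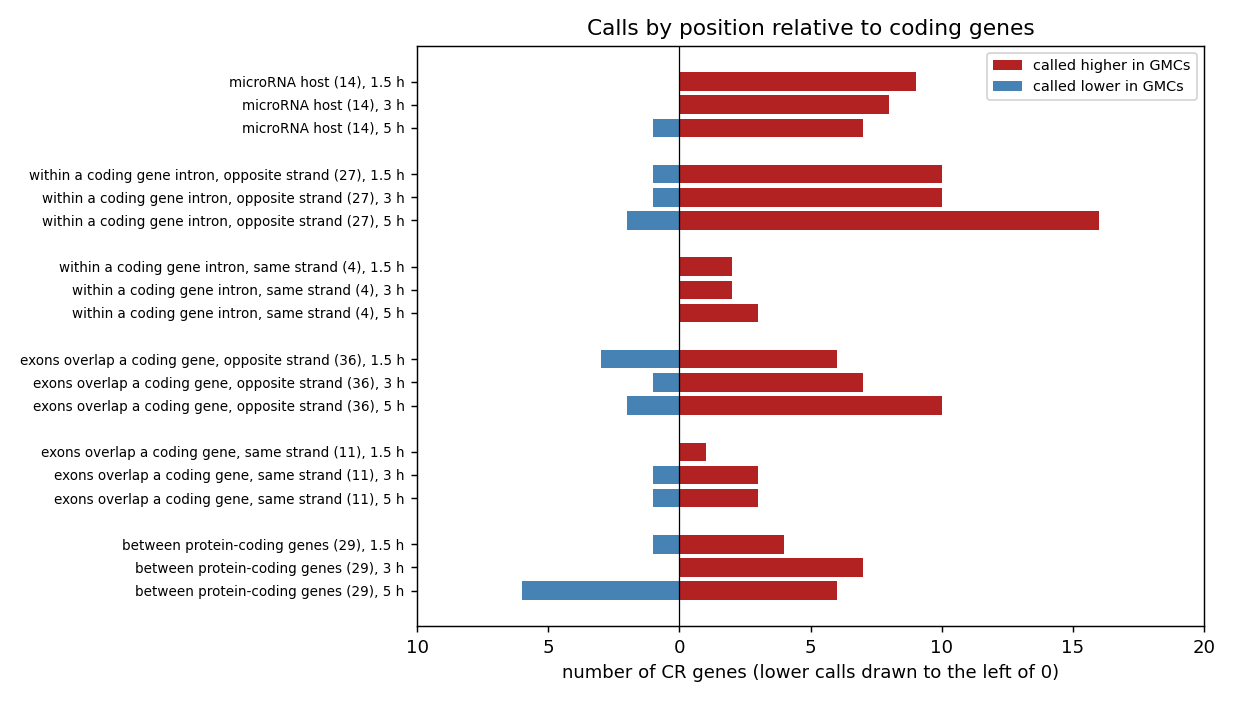
Number of CR genes called higher (red, to the right of 0) or lower (blue, to the left of 0) in GMCs than in NBs at an adjusted p under 0.05, for 6 classes of position and 3 times in culture; the number of members of each class stands in parentheses. MicroRNA hosts (9, 8 and 7 of 14) and intronic transcripts on the opposite strand (10, 10 and 16 of 27) show the most higher calls for their size apart from the class of 4, and 6 of the 12 lower calls at 5 h are transcripts between coding genes.

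The microRNA hosts are transcripts whose exons hold 1 or more annotated hairpins on the same strand. CR45919 holds mir-124, a microRNA abundant in the nervous system of animals from flies to mammals, and lies at 2L:17560813-17566551 on the plus strand. Its level in NBs was 36.1, 28.3 and 25.5 CPM at 1.5 h, 15.1, 14.3 and 15.9 CPM at 3 h and 24.4, 48.3 and 55.8 CPM at 5 h. In GMCs it was 98.7, 162 and 98.4 CPM, 123 and 139 CPM and 285 and 329 CPM. Every GMC library lay above every NB library of its age. The log2 fold change was 1.99 ± 0.26, 3.12 ± 0.29 and 2.84 ± 0.29 (standard error; edgeR adjusted p = 1.23e-04, 4.24e-06 and 3.05e-06), the largest among the hosts at 3 and 5 h, and these calls held under every alternative run.

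CR45910 holds mir-1000 and lies in an intron of musashi (msi), on the opposite strand, which encodes a neural RNA-binding protein. Its level in NBs was 3.47, 5.44 and 5.63 CPM at 1.5 h, 6.21, 7.32 and 7.18 CPM at 3 h and 6.45, 17.0 and 12.9 CPM at 5 h, and in GMCs 16.4, 15.8 and 11.6 CPM, 23.9 and 32.2 CPM and 63.0 and 74.7 CPM. The groups did not overlap at any age, with log2 fold changes of 1.59 ± 0.30, 2.02 ± 0.33 and 2.50 ± 0.32 (edgeR adjusted p = 0.00184, 4.20e-04 and 3.07e-05). The coding gene msi had a log2 fold change of -0.80 at 1.5 h and 0.13 at 3 h, neither called, and was called higher at 5 h with 0.87 (edgeR adjusted p = 0.0427). The host and its surrounding gene thus had opposite signs at 1.5 h, where the value of msi did not pass the test.

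CR45911 holds mir-2c, mir-13a and mir-13b-1, members of a microRNA family known in flies for targeting proapoptotic genes, and lies 43 bases from Atx2, the fly Ataxin-2. NB libraries held 6.47, 7.04 and 7.24 CPM at 1.5 h, 6.21, 5.06 and 6.25 CPM at 3 h and 5.72, 7.10 and 7.53 CPM at 5 h, and GMC libraries 12.5, 14.4 and 12.9 CPM, 22.6 and 19.4 CPM and 33.6 and 33.0 CPM. NB levels stayed between 5 and 8 CPM, and GMC levels were above them in each library. The GMC level exceeded the NB level by 0.94 ± 0.20, 1.84 ± 0.23 and 2.29 ± 0.23 on the log2 scale (edgeR adjusted p = 0.00470, 4.86e-05 and 2.58e-06), and the difference itself grew by 1.36 ± 0.30 from 1.5 to 5 h (edgeR adjusted p = 0.00820). Atx2 was called higher in GMCs at 3 h (0.92) and 5 h (0.93) and not at 1.5 h.

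CR31451, which the annotation names mimi, holds mir-9381 and was the member with the largest fold change at 1.5 h. It stood at 4.90, 3.26 and 2.38 CPM in the NBs of 1.5 h and at 35.2, 53.8 and 41.8 CPM in the GMCs. At 3 h the NBs held 7.68, 2.65 and 4.16 CPM and the GMCs 24.5 and 37.2 CPM. At 5 h the GMCs had come down to 2.12 and 5.54 CPM and overlapped the NBs at 2.91, 2.30 and 11.0 CPM. The log2 fold change was 3.63 ± 0.54 at 1.5 h and 2.70 ± 0.56 at 3 h (edgeR adjusted p = 3.25e-04 and 0.00278). It was not called at 5 h, and the change of the difference from 1.5 to 5 h was -4.14 ± 0.82 (edgeR adjusted p = 0.00414).

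CR43857, the host of mir-275, and CR46194, the host of mir-281-1 and mir-281-2, were called higher at 1.5 and 3 h and not at 5 h. CR43857 held 3.38, 3.15 and 3.04 CPM in NBs and 10.2, 10.2 and 11.6 CPM in GMCs at 1.5 h, 5.98, 2.57 and 3.23 and 13.7 and 12.4 CPM at 3 h, and 3.54, 3.76 and 4.78 and 5.46 and 6.63 CPM at 5 h. Its log2 fold change was 1.74 ± 0.31 and 1.75 ± 0.34 at the first ages (edgeR adjusted p = 0.00120 and 0.00167). Over the NB libraries alone the mean of CR43857 was 4.18 CPM, under the threshold of inclusion, so its differences are a description. CR46194, inside Oda, the antizyme of ornithine decarboxylase, held 4.95, 10.1 and 13.0 CPM in NBs and 22.7, 23.2 and 21.9 CPM in GMCs at 1.5 h, and 4.52, 16.5 and 15.2 and 49.9 and 39.6 CPM at 3 h, with log2 fold changes of 1.27 ± 0.39 and 1.87 ± 0.43 (edgeR adjusted p = 0.0333 and 0.00506). The 1.5 h call of CR46194 was lost when any library of that age but replicate 3 of the NBs was left out (adjusted p up to 0.137). Exons of Oda and SmD3 cover 29.8% of its exon length.

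CR46006 holds mir-276a, a microRNA with a role in olfactory memory in adult flies. CR31044 holds mir-279 and mir-996, known in flies for restricting the formation of carbon dioxide sensing neurons. CR46006 stood at 37.4, 34.0 and 22.8 CPM in NBs and 39.9, 100.1 and 45.9 CPM in GMCs at 1.5 h, at 40.7, 20.6 and 27.8 and 70.8 and 91.5 CPM at 3 h, and at 35.5, 62.8 and 55.9 and 197 and 213 CPM at 5 h. Its log2 fold change was 0.98 ± 0.33, 1.46 ± 0.36 and 1.99 ± 0.36 (edgeR adjusted p = 0.0483, 0.00861 and 5.53e-04). The call at 1.5 h was lost without any single library of that age except replicate 1 of the GMCs, and the call at 3 h without replicate 2 of the GMCs. Removing a trend of fold change on gene length also ended these calls, with adjusted p up to 0.372 at 1.5 h and 0.168 at 3 h. CR31044 was called at 1.5 h (0.71 ± 0.22; edgeR adjusted p = 0.0320) and 5 h (0.67 ± 0.24; edgeR adjusted p = 0.0481), from levels of 23.2, 31.8 and 29.7 CPM in NBs and 43.6, 43.8 and 51.5 CPM in GMCs at 1.5 h. The 1.5 h call was lost without any single library of that age (adjusted p up to 0.158) and the 5 h call without any but replicate 2 of the NBs (adjusted p up to 0.286).

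The remaining hosts did not lean towards GMCs at all ages. CR43650, the host of mir-8, the fly member of the miR-200 family, was the only host called lower. Its level in NBs was 31.0, 34.8 and 34.2 CPM at 1.5 h, 23.0, 24.3 and 28.3 CPM at 3 h and 38.2, 57.2 and 66.0 CPM at 5 h. In GMCs it was 24.6, 24.0 and 18.8 CPM, 15.1 and 18.0 CPM and 15.7 and 18.8 CPM, below every NB library of the same age. It came to -1.64 ± 0.24 on the log2 scale at 5 h (edgeR adjusted p = 9.67e-05), and -0.57 and -0.60 at 1.5 and 3 h, which missed the threshold (edgeR adjusted p = 0.0642 and 0.0827) and passed it in DESeq2 at both ages. CR42651, the host of mir-10 in the Hox cluster next to Dfd, held 3.43, 2.58 and 2.84 CPM in NBs and 1.50, 1.11 and 2.31 CPM in GMCs at 1.5 h and 7.39, 10.2 and 12.4 and 27.6 and 29.2 CPM at 5 h. It was called higher in GMCs at 5 h alone (1.50 ± 0.34), and the difference changed by 2.35 ± 0.48 between 1.5 and 5 h. It reached the threshold of inclusion through the 5 h GMCs, with a mean of 4.60 CPM over the other libraries, so these differences are a description.

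CR43334, the host of bantam (mir-ban), a microRNA that promotes growth and blocks cell death, was not called in any comparison. With a mean of 148 CPM it was the second most abundant host, at 192, 200.2 and 167 CPM in NBs and 124, 159 and 99.9 CPM in GMCs at 1.5 h, 124, 90.2 and 152 and 106 and 118 CPM at 3 h, and 128, 197 and 196 and 116 and 149 CPM at 5 h. CR43459, the host of mir-277 and mir-34, was not called between cell types either. It fell with age in both: NBs held 54.8, 42.2 and 61.5 CPM at 1.5 h and 11.5, 7.31 and 14.4 CPM at 5 h, and GMCs 29.3, 70.3 and 43.5 and 7.08 and 13.5 CPM, a log2 change of -2.25 ± 0.37 in NBs and -2.22 ± 0.44 in GMCs (edgeR adjusted p = 0.00153 and 0.00133). CR45054, 3236 bases away on the same strand, likewise fell, with log2 changes of -3.21 in NBs and -2.31 in GMCs (edgeR adjusted p = 3.57e-04 and 0.00211). Without the libraries of 1.5 h the mean of CR45054 was 4.55 CPM, under the threshold of inclusion, so its fall is a description. CR46004, the host of mir-276b, stayed between 0.679 and 8.69 CPM in all libraries and was not called.

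**Figure D3:**
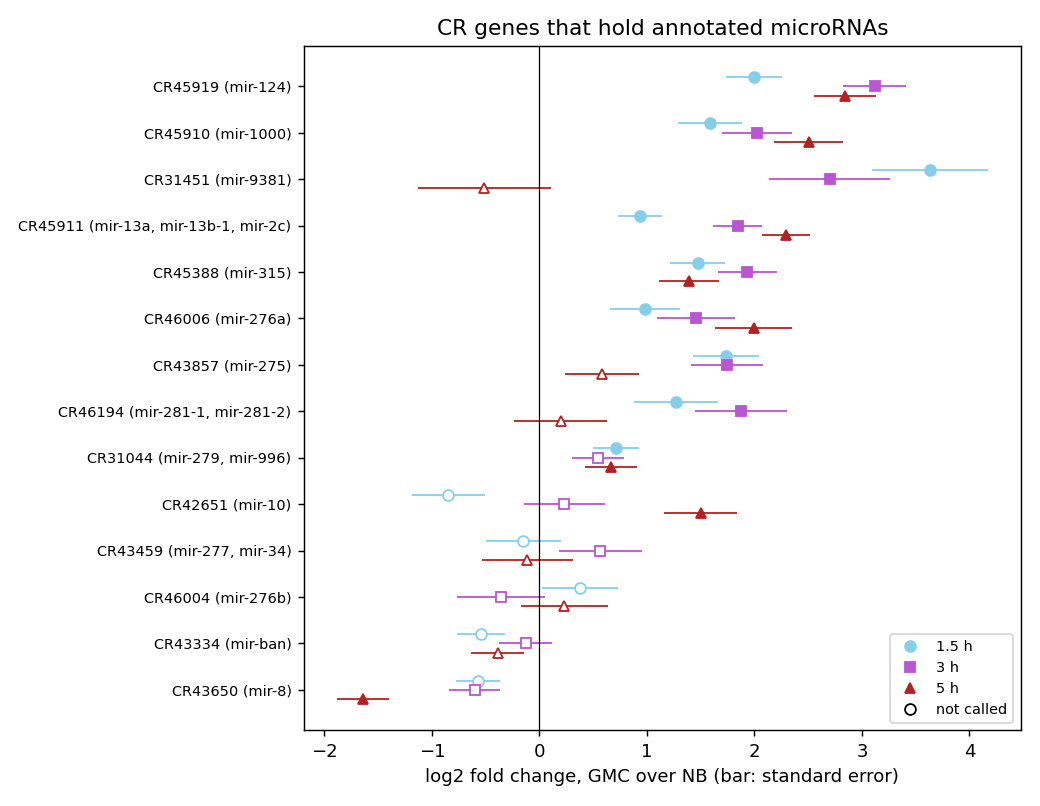
Log2 fold change in GMCs over NBs with its standard error (edgeR) for the 14 CR genes that hold annotated microRNAs, at 1.5 h (circles), 3 h (squares) and 5 h (triangles); open symbols were not called at an adjusted p under 0.05. The hosts of mir-124, mir-1000, the mir-13a cluster, mir-315 and mir-276a lie to the right of 0 with filled symbols at all 3 ages, the host of mir-9381 stands at 3.63 at 1.5 h and is not called at 5 h, and the host of mir-8 is the only one with a filled symbol to the left of 0.

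The locus of mir-315 on 3L held 3 members. CR45388, at 3L:18852573-18861363 on the plus strand, is the host and the second most abundant member. Its level in NBs was 544, 574 and 593 CPM at 1.5 h, 472, 529 and 711 CPM at 3 h and 363, 550.0 and 543 CPM at 5 h, and in GMCs 1342, 2156 and 1250.4 CPM, 2035 and 2325 CPM and 908 and 1636 CPM. The groups were apart at each age, and the log2 fold change was 1.47 ± 0.26, 1.93 ± 0.28 and 1.39 ± 0.28 (edgeR adjusted p = 0.00103, 1.68e-04 and 0.00117). CR45387 lies within its span on the same strand, at 3L:18854317-18854622 on the plus strand. It held 342, 359 and 345 CPM in NBs and 673, 765 and 484 CPM in GMCs at 1.5 h, 254, 264 and 327 and 599 and 696 CPM at 3 h, and 228, 358 and 375 and 506 and 951 CPM at 5 h. Its log2 fold changes of 0.88 ± 0.24, 1.20 ± 0.26 and 1.19 ± 0.26 were each called (edgeR adjusted p = 0.0174, 0.00363 and 0.00259) and each smaller than those of CR45388. CR45912 runs antisense across the hairpin, and its exons cover 54.5% of the exon length of CR45388. It was called at 5 h only, at 26.6, 77.0 and 65.1 CPM in NBs and 133 and 178 CPM in GMCs (1.47 ± 0.38; edgeR adjusted p = 0.00771), and lay at 33.5, 45.0 and 36.2 CPM in NBs and 43.9, 43.7 and 22.8 CPM in GMCs at 1.5 h. The sources used here do not give the strand setting of the counting, so reads of CR45388 and its antisense partner cannot be told apart where they overlap. Without replicate 2 of the 5 h GMCs the 5 h calls of all 3 genes were lost, with adjusted p of 0.0588, 0.138 and 0.0914 for CR45388, CR45387 and CR45912. The 1.5 h call of CR45387 was lost when any library of that age but replicate 3 of the GMCs was left out, and its calls at 1.5 and 3 h once the trend on gene length was removed (adjusted p = 0.157 at 3 h).

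Around mir-276a and mir-276b on 3L lie 4 members: CR45242 and CR46003, 16592 bases apart, and the hosts CR46004 and CR46006. CR46003, at 3L:10286945-10307968 on the minus strand, is the most abundant member. It held 1501, 1942 and 1711 CPM in NBs and 2222, 2569.8 and 1499.9 CPM in GMCs at 1.5 h, where the groups overlapped. At 3 h it stood at 819.8, 1231 and 1262 CPM in NBs and 1800.5 and 1969 CPM in GMCs, and at 5 h at 841, 753 and 705 and 408 and 479.7 CPM. It was called higher in GMCs at 3 h (0.77 ± 0.23; edgeR adjusted p = 0.0235) and lower at 5 h (-0.79 ± 0.24; edgeR adjusted p = 0.0195). The call at 3 h was lost without either GMC library, without replicate 1 of the NBs and with a trend on gene length removed (adjusted p up to 0.988), and the call at 5 h without either GMC library (adjusted p up to 0.145). From 1.5 to 5 h its level fell in both cell types, with log2 changes of -1.16 in NBs and -2.24 in GMCs (edgeR adjusted p = 0.00262 and 1.23e-05). CR45242 held 156, 145 and 142 CPM in NBs and 50.7 and 58.9 CPM in GMCs at 5 h (-1.43 ± 0.32; edgeR adjusted p = 0.00304), while at 1.5 h the groups overlapped at 225, 154 and 118 CPM in NBs and 220.2, 211 and 149.6 CPM in GMCs. CR46006, 15533 bases from CR46003, rose in GMCs over the same ages, with a log2 change of 1.72 (edgeR adjusted p = 0.00185). The neighbours of this locus thus moved in opposite directions at 5 h, with CR46003 and CR45242 lower in GMCs and CR46006 higher.

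**Figure D4:**
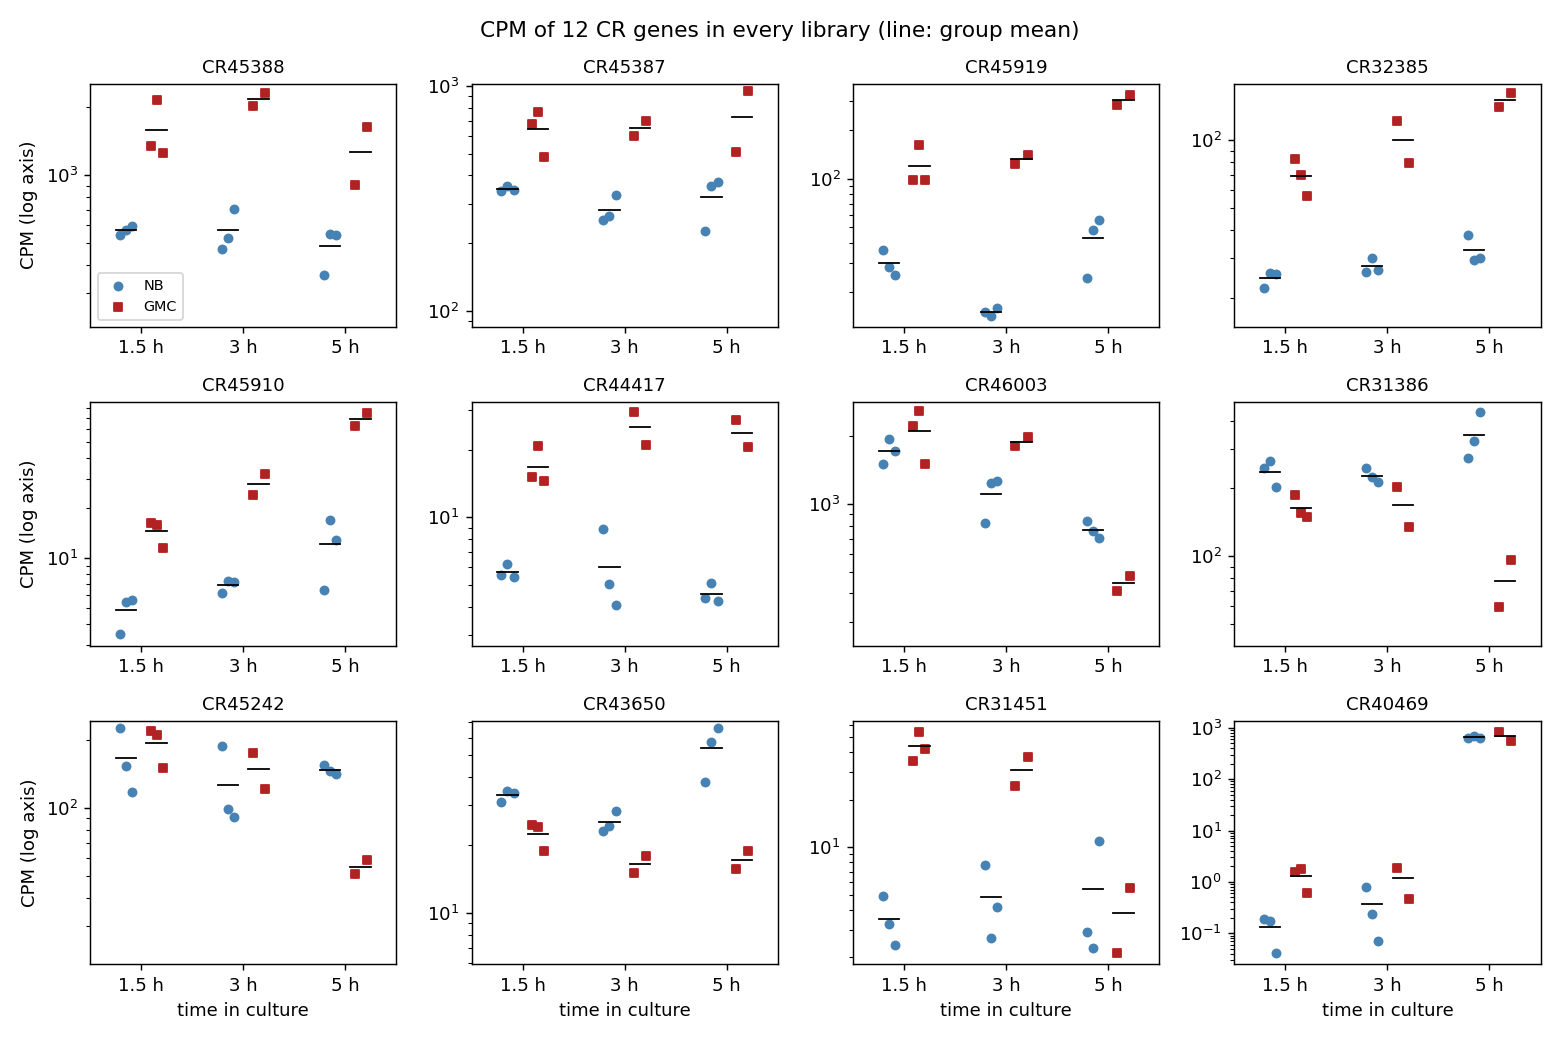
CPM on a log axis of 12 CR genes in each library, by time in culture, with blue circles for NBs, red squares for GMCs and a black line at each group mean. CR45388, CR45387, CR45919, CR32385, CR45910 and CR44417 lie higher in every GMC library at all ages, CR46003, CR31386, CR45242 and CR43650 lie lower in GMCs at 5 h, CR31451 differs at 1.5 and 3 h only, and CR40469 lies above 500 CPM in the 5 libraries of 5 h and under 2 CPM in the others.

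Transcripts that lie wholly inside an intron of a coding gene on the opposite strand share no exon sequence with it. The strand setting of the counting is not known, so reads of the unspliced coding gene cannot be told apart from theirs. CR32385, at 3L:6976322-6979222 on the plus strand, lies in an intron of Galphai, the G protein subunit that acts in the orientation of NB divisions. NBs held 22.0, 25.8 and 25.5 CPM at 1.5 h, 26.1, 30.2 and 26.6 CPM at 3 h and 38.2, 29.6 and 30.0 CPM at 5 h, and GMCs 82.6, 69.9 and 56.5 CPM, 121 and 79.2 CPM and 140.1 and 161 CPM. Its log2 fold change of 1.51 ± 0.19, 1.86 ± 0.21 and 2.21 ± 0.21 (edgeR adjusted p = 9.99e-05, 2.56e-05 and 1.81e-06) was accompanied by a higher level of Galphai itself, with 0.65, 1.10 and 1.55 (edgeR adjusted p = 0.00964, 3.68e-04 and 8.47e-06). CR45156, in an intron of Cip4, an F-BAR protein of membrane and actin dynamics, behaved likewise. It rose by 1.12 ± 0.27, 1.90 ± 0.30 and 2.28 ± 0.30 (edgeR adjusted p = 0.00833, 3.28e-04 and 3.41e-05), beside 1.18, 1.57 and 1.53 for Cip4.

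Other intronic transcripts were higher in GMCs where their coding gene was not. CR44417 lies in an intron of Mapmodulin, an acidic nuclear protein of the ANP32 family. It held 5.57, 6.18 and 5.43 CPM in NBs and 15.1, 20.7 and 14.6 CPM in GMCs at 1.5 h, 8.92, 5.06 and 4.09 and 29.4 and 20.9 CPM at 3 h, and 4.37, 5.12 and 4.28 and 27.0 and 20.5 CPM at 5 h. The log2 fold change was 1.55 ± 0.28, 2.07 ± 0.31 and 2.37 ± 0.32 (edgeR adjusted p = 0.00148, 2.56e-04 and 4.22e-05) and held under every alternative run. Mapmodulin had values of -0.25, -0.37 and -0.50, none called (edgeR adjusted p = 0.536, 0.388 and 0.188). CR44993, in an intron of Df31, a chromatin protein that binds histones and RNA, rose by 1.02 ± 0.20, 1.16 ± 0.22 and 1.51 ± 0.22 (edgeR adjusted p = 0.00229, 0.00137 and 7.99e-05), from 17.4, 16.8 and 18.1 CPM in NBs to 28.3, 47.0 and 30.9 CPM in GMCs at 1.5 h, while Df31 was called at no age. Its 1.5 h call was lost once a trend on gene length was removed.

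CR46035 lies in an intron of osa, a subunit of the Brahma remodelling complex, and held 7.23, 4.69 and 6.66 CPM in NBs and 11.1, 23.6 and 17.9 CPM in GMCs at 1.5 h, 4.63, 3.66 and 6.25 and 26.2 and 21.4 CPM at 3 h, and 4.58, 3.13 and 3.46 and 18.4 and 19.2 CPM at 5 h. It was called at each age with 1.49 ± 0.30, 2.29 ± 0.33 and 2.33 ± 0.34 (edgeR adjusted p = 0.00270, 1.86e-04 and 8.67e-05). The log2 fold change of osa was 0.00 at 1.5 h, not called, and 0.76 and 1.48 at 3 and 5 h, called. CR44218 and CR44222, both in introns of kis, a CHD-family remodeller, were called higher at all 3 ages with 1.41, 1.31 and 0.97 for CR44218 and 1.16, 2.05 and 1.74 for CR44222. The coding gene kis was called at 5 h alone (1.13; edgeR adjusted p = 0.00299). Leaving out a single GMC library ended the calls of CR44218 at 3 and 5 h and that of CR44222 at 5 h, the last without replicate 2 (adjusted p up to 0.0758, 0.277 and 0.0748). The 1.5 h call of CR44222 was lost without any library of that age but replicate 3 of the GMCs (adjusted p up to 0.153). Over the NB libraries alone the mean of CR44222 was 3.90 CPM, under the threshold of inclusion, so its differences are a description.

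On 3L, CR32218 and CR43889 lie 12974 bases apart near Mi-2, which encodes another chromatin remodeller. CR32218, in a same-strand intron of Su(Tpl), an elongation factor of the ELL family, held 37.4, 35.1 and 37.6 CPM in NBs and 75.7 and 72.5 CPM in GMCs at 3 h and 26.9, 34.8 and 36.4 and 79.5 and 136 CPM at 5 h (1.01 ± 0.27 and 1.72 ± 0.27; edgeR adjusted p = 0.0121 and 1.47e-04). At 1.5 h its groups overlapped and the call (0.74; edgeR adjusted p = 0.0422) was lost without replicate 1 or 3 of the NBs or replicate 1 or 2 of the GMCs (adjusted p up to 0.189). The 3 h call was lost without either GMC library (adjusted p up to 0.0828). Su(Tpl) was called at no age. CR43889 is antisense to Mi-2, and exons of Mi-2 and Su(Tpl) cover 26.4% of its exon length. It rose by 1.00 ± 0.25, 1.57 ± 0.28 and 2.09 ± 0.27 (edgeR adjusted p = 0.0104, 7.95e-04 and 3.65e-05), with 8.43, 11.5 and 10.1 CPM in NBs and 34.3 and 50.9 CPM in GMCs at 5 h. Mi-2 had 0.03 and 0.59 at 1.5 and 3 h, not called, and 1.17 at 5 h, called. The 1.5 h call of CR43889 was lost without replicate 2 or 3 of the NBs or replicate 2 of the GMCs (adjusted p up to 0.0664).

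CR43910 and CR45971 differed most at 5 h. CR43910 lies in a same-strand intron of rhea, the fly talin, and held 2.52, 2.75 and 2.34 CPM in NBs and 4.02, 5.30 and 4.44 CPM in GMCs at 1.5 h. Its calls at 1.5 h (0.85) and 3 h (1.07) were lost without any single library of 1.5 h (adjusted p up to 0.274), and without either GMC library or replicate 3 of the NBs of 3 h (adjusted p up to 0.143). At 5 h it reached 33.1 and 36.9 CPM in GMCs beside 3.95, 5.12 and 7.13 CPM in NBs, which is 2.69 ± 0.29 on the log2 scale, while rhea itself had 1.46 (edgeR adjusted p = 1.72e-04). The difference was larger at 5 h than at 1.5 h by 1.84 ± 0.39. Over the libraries other than the 5 h GMCs its mean was 3.95 CPM, under the threshold of inclusion, so these differences are a description. Reads of unspliced rhea would fall on the same strand as CR43910, and such reads cannot be told apart here. CR45971, in an intron of olf413 on the opposite strand, held 6.66, 4.75 and 4.23 CPM in NBs and 1.77, 7.09 and 4.09 CPM in GMCs at 1.5 h, where it was not called, and 8.01, 7.73 and 8.55 and 39.8 and 31.2 CPM at 5 h (2.13 ± 0.41; edgeR adjusted p = 9.13e-04). Its difference changed by 2.41 ± 0.56 (edgeR adjusted p = 0.0102), a call lost without replicate 1 of the 5 h GMCs (adjusted p = 0.0529), and olf413 itself was called higher at 5 h with 1.32. Without the libraries of 5 h the mean of CR45971 was 4.66 CPM, under the threshold of inclusion, so its differences are a description. CR43264, in an intron of CG15765, was called at 1.5 h alone, from 12.3, 7.16 and 5.06 CPM in NBs to 27.7, 21.8 and 19.3 CPM in GMCs (1.49 ± 0.42; edgeR adjusted p = 0.0214), a call lost without replicate 2 or 3 of the NBs or replicate 1 of the GMCs (adjusted p up to 0.118).

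Over all 69 members that overlap a tested coding gene, the fold change of the member tracked that of the coding gene loosely at first and more closely at 5 h. Pearson's r across these pairs was 0.33, 0.45 and 0.66 at 1.5, 3 and 5 h. The points come from the same libraries, some coding genes are shared and the strand setting is not known, so the values are descriptive. For the 26 pairs in which the member lies in an intron on the opposite strand r was 0.33, 0.25 and 0.50, and the median log2 fold change was 1.01, 0.91 and 1.20 for the members and 0.11, 0.58 and 0.54 for the coding genes. For the 28 pairs with exons overlapping on the opposite strand r was 0.34, 0.52 and 0.81. For the 9 with exons overlapping on the same strand it was 0.59, 0.84 and 0.62. In both classes reads within the overlap cannot be told apart. Of 20 overlapping members called higher at 1.5 h the coding gene was called higher for 3 and not called for 17. At 3 h it was called higher for 8 of 23, and at 5 h for 18 of 31. For none of these members was the coding gene called lower at the same age.

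**Figure D5:**
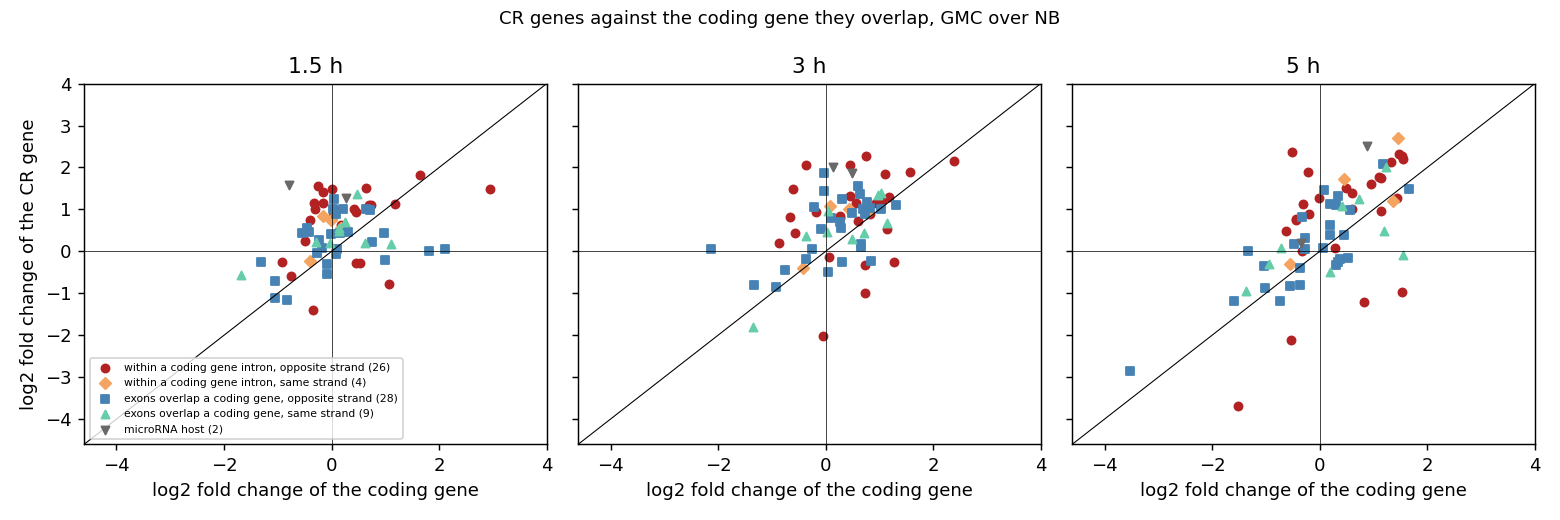
Log2 fold change (GMC over NB) of 69 CR genes on the vertical axis against that of the coding gene they overlap on the horizontal axis, at 1.5, 3 and 5 h, with the line of equality; colours and symbols give the position class. At 1.5 h most points stand above the line near a coding gene value of 0, and at 5 h the points stretch along the line (r of 0.33 and 0.66).

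Members whose exons overlap exons of a coding gene on the opposite strand were called less uniformly, and their counts cannot be told apart from those of the coding gene within the overlap. CR45139, antisense to uex, a magnesium transporter, has 51.4% of its exon length in this overlap. It held 32.9, 23.2 and 27.0 CPM in NBs and 64.1, 58.0 and 41.4 CPM in GMCs at 1.5 h, 43.4, 40.9 and 29.3 and 94.3 and 77.3 CPM at 3 h, and 33.5, 28.1 and 37.6 and 54.3 and 76.0 CPM at 5 h, with log2 fold changes of 0.98 ± 0.22, 1.18 ± 0.24 and 0.98 ± 0.24 (edgeR adjusted p = 0.00553, 0.00225 and 0.00568). The 5 h call was lost without replicate 2 of the GMCs (adjusted p = 0.121). For uex the values were 0.72, 0.77 and 0.56, none called. CR45473, antisense to tyn, was called at each age as well (1.42, 2.03 and 1.98), with 3.39, 6.15 and 4.60 CPM in NBs and 23.2 and 15.8 CPM in GMCs at 3 h. CR44119, with 54.8% of its exon length over SLC5A11, and CR46268, with 55.5% over CG17490, were not called between cell types at any age.

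Of the members that hold or face small nucleolar RNAs, guides of RNA modification, each neighbours a ribosomal protein gene. CR45874 is antisense to RpS9 (58.6% of its exon length) and faces snoRNA:Me28S-G3253. It held 3.85, 4.64 and 4.93 CPM in NBs and 10.7, 10.2 and 11.1 CPM in GMCs at 1.5 h, 4.29, 3.58 and 3.16 and 13.7 and 13.1 CPM at 3 h, and 3.74, 6.27 and 5.80 and 11.7 and 11.4 CPM at 5 h. In log2 units the difference was 1.25 ± 0.26, 1.87 ± 0.29 and 1.13 ± 0.29 (edgeR adjusted p = 0.00349, 3.20e-04 and 0.00707), while RpS9 stood at 0.05, -0.03 and 0.20 and was not called. CR31144, antisense to RpL3 over 73.7% of its exon length, was called at 1.5 h (0.88) and 5 h (1.10) with RpL3 not called, and the 1.5 h call was lost without any single library of that age and with median-ratio scaling. CR42491, which overlaps RpL22 on the same strand over 50.5% of its exon length and holds snoRNA:Psi18S-531 in an intron, was called at 3 h (0.96 ± 0.28; edgeR adjusted p = 0.0233) and 5 h (1.08 ± 0.28; edgeR adjusted p = 0.00803). RpL22 was not called. The 5 h calls of CR31144 and CR42491 were lost without replicate 1 of the GMCs, that of CR31144 also without replicate 2, and the 3 h call of CR42491 without replicate 1 of the GMCs or replicate 1 or 3 of the NBs (adjusted p up to 0.233).

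Between coding genes, the abundant members split. CR44024 on chromosome 4 held 248, 397 and 335 CPM in NBs and 532, 511 and 354 CPM in GMCs at 1.5 h, where the groups overlapped, and 284, 397 and 291 and 766 and 747 CPM at 5 h (1.22 ± 0.24; edgeR adjusted p = 0.00101). Its 3 h call (0.80; edgeR adjusted p = 0.0252) was lost without either GMC library or replicate 1 or 2 of the NBs (adjusted p up to 0.140). CR32636 was called higher at 1.5 h (1.76 ± 0.38; edgeR adjusted p = 0.00460) and 3 h (1.83 ± 0.41; edgeR adjusted p = 0.00424), from 5.52, 7.84 and 7.36 CPM in NBs to 19.6, 31.9 and 18.8 CPM in GMCs at 1.5 h, the 3 h call being lost without replicate 1 of the GMCs (adjusted p = 0.0610). CR30009, between coding genes on 2R, varied among replicates, with 540.1, 146 and 244 CPM in the NBs and 141 and 179 CPM in the GMCs of 3 h, and was not called. CR42862, which overlaps CG33229 by 4.48% of its exon length, was not called between cell types, with 473, 995 and 892 CPM in NBs and 1023 and 1185 CPM in GMCs at 5 h.

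Fewer members were lower in GMCs, and at 5 h these included abundant ones between coding genes. CR31386 lies on 3R at 3R:11269415-11305608 on the minus strand, 13292 bases from CR43283 and 22872 bases from pros, which encodes the GMC fate factor Prospero. It held 247, 264 and 202 CPM in NBs and 186, 155 and 149 CPM in GMCs at 1.5 h, 246, 224 and 213 and 204 and 136 CPM at 3 h, and 274, 324 and 437 and 59.3 and 96.5 CPM at 5 h. GMC libraries were below NB libraries at each age. At 5 h the fold change of -2.15 ± 0.26 on the log2 scale was called (edgeR adjusted p = 1.80e-05), whereas -0.54 and -0.43 at 1.5 and 3 h were not (edgeR adjusted p = 0.0983 and 0.241), and the difference changed by -1.61 ± 0.33 from 1.5 to 5 h (edgeR adjusted p = 0.00488). CR43685, 228 bases from e(y)2b, was called at 1.5 h (-0.89 ± 0.20; edgeR adjusted p = 0.00497) and 5 h (-2.23 ± 0.24; edgeR adjusted p = 6.87e-06). Its GMC levels were 12.5, 17.2 and 16.4 CPM at 1.5 h, 21.5 and 14.9 CPM at 3 h and 6.97 and 5.91 CPM at 5 h, beside 24.7 to 33.6 CPM in the 9 NB libraries.

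CR46005 was the member called lower at every age. Its level in NBs was 17.6, 21.0 and 23.9 CPM at 1.5 h, 15.8, 23.0 and 23.8 CPM at 3 h and 15.1, 21.4 and 36.7 CPM at 5 h, and in GMCs 5.59, 7.09 and 5.78 CPM, 5.84 and 6.04 CPM and 2.02 and 4.46 CPM. The groups did not overlap, and the log2 fold change was -1.76 ± 0.32, -1.81 ± 0.39 and -2.92 ± 0.41 (edgeR adjusted p = 0.00158, 0.00323 and 6.86e-05). The calls held under every alternative run. Over the GMC libraries alone the mean of CR46005 was 4.54 CPM, under the threshold of inclusion, so these differences are a description. Exons of l(3)mbn, Lcp65Ag3 and Cpr65Au on the opposite strand cover 32.4% of its exon length, and l(3)mbn stayed under 1 CPM in each group mean.

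Other members were called lower at 1 or 2 ages. CR33963 overlaps Tis11, a factor of mRNA decay, on the same strand and was called at 3 h (-1.80 ± 0.36; edgeR adjusted p = 0.00210), from 10.3, 12.5 and 10.7 CPM in NBs to 3.20 and 3.18 CPM in GMCs, while Tis11 fell at all 3 ages (-1.68, -1.35 and -0.94). Over the GMC libraries alone the mean of CR33963 was 4.87 CPM, under the threshold of inclusion, so its difference is a description. CR46055, antisense to the cell cycle factor E2f1 over 53.2% of its exon length, was called at 1.5 h (-1.16 ± 0.29; edgeR adjusted p = 0.0103) together with E2f1 (-0.82), a call of CR46055 that was lost without replicate 1 of the GMCs (adjusted p = 0.0525). CR43257, antisense to ETH and Orc4 over 51.4% of its exon length, was called at 1.5 h (-1.12; edgeR adjusted p = 0.0190) beside -1.05 for ETH, and lost the call without replicate 2 or 3 of either cell type (adjusted p up to 0.0777). CR44161, in an intron of bin3, was called at 1.5 h (-1.41 ± 0.41) and 3 h (-2.02 ± 0.50) while bin3 was not. It lies under the threshold of inclusion without the NBs of 1.5 h or those of 3 h (means of 4.80 and 4.65 CPM), so these differences are a description. It held 0.565 and 2.56 CPM in the 3 h GMCs, and the 3 h call was lost without replicate 1 of them (adjusted p = 0.108), the 1.5 h call without any library of that age but replicate 1 of the NBs (adjusted p up to 0.103). At 5 h CR46029 (-1.76) and CR46250 (-1.20) were also called lower, and each lost the call without either GMC library, CR46250 also without replicate 2 or 3 of the NBs (adjusted p up to 0.0813 and 0.206). CR46029 reached the threshold of inclusion through the 5 h NBs, with a mean of 3.64 CPM over the other libraries. CR46250 had a mean of 3.96 CPM over the GMC libraries alone, so the differences of both genes are descriptions.

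The difference between cell types changed with age for some members. No member was called for a change between 1.5 and 3 h, as was no gene at all (0.0% of 10913). At an unadjusted p under 0.05 there were 7 members, and DESeq2 called 0 members and 32 genes. Between 1.5 and 5 h 21 members were called, 9 towards a higher and 12 towards a lower level in GMCs, beside 6.59% of all genes in each direction and 13.2% in all; the members' share was 17.2%. The count was 33 with DESeq2, 13 without replicate 3 of the 1.5 h NBs, 11 without replicate 1 of the 5 h GMCs and 8 without replicate 2 of them. These 21 are given with their values further below.

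Levels within a cell type also moved with age. From 1.5 to 5 h 24 members were called in NBs, 15 higher and 9 lower. Of all genes 7.28% were called higher there and 4.0% lower, 11.3% in all. In GMCs 51 members were called, 31 higher and 20 lower, beside 17.0% and 13.3% of all genes and 30.3% in all. From 1.5 to 3 h no member was called in NBs (0.0733% of all genes higher and 0.0275% lower, 0.101% in all; 21 members at an unadjusted p under 0.05, and 5 higher and 1 lower with DESeq2) and 5 in GMCs, all higher (1.32% of all genes higher and 1.64% lower, 2.96% in all). In GMCs the log2 change from 1.5 to 5 h was 4.11 ± 0.37 for CR42651, 3.05 ± 0.42 for CR45971 and 2.93 ± 0.29 for CR43910. These are descriptions, since without the 5 h libraries their means would be 2.82, 4.66 and 3.39 CPM, under the threshold of inclusion. In NBs CR46123, in an intron of Myo81F, fell from 55.1, 58.3 and 67.1 CPM at 1.5 h to 3.74, 13.5 and 20.3 CPM at 5 h (-2.27 ± 0.47; edgeR adjusted p = 0.00622). Without replicate 1 of the 5 h NBs 22 members were called higher and 14 lower in NBs of 5 h against 1.5 h.

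CR40469 had a level that depended on age more than that of any other member. It is a single exon of 214 bases on the X chromosome, at X:122493-122706 on the plus strand. At 1.5 h it held 0.190, 0.172 and 0.0411 CPM in NBs and 1.57, 1.79 and 0.622 CPM in GMCs, and at 3 h 0.790, 0.234 and 0.0718 and 1.88 and 0.465 CPM. At 5 h all libraries were high, with 639.8, 692 and 638 CPM in NBs and 822 and 541 CPM in GMCs. Counts were 1 to 4 per NB library and 7 to 23 per GMC library at 1.5 h, 1 to 10 in the libraries of 3 h and 4487 to 8136 in those of 5 h, where the floor of 3 counts corresponds to 0.303 to 0.362 CPM. It passed the inclusion threshold through the 5 h libraries, so its difference between ages is a description, and no fold is given from so few counts. At 1.5 h the GMC libraries all lay above the NB libraries, and the difference was called (edgeR adjusted p = 0.00227), and at 5 h the groups overlapped and it was not called. Replicate 1 of the 5 h NBs, the library that stands apart, held the 5 h level of this gene. Age and flow cell cannot be told apart for it.

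A further profile was shared by 19 members, chosen after their values were seen: each GMC library of 3 h lay above every GMC library of 1.5 and 5 h, and replicate 1 of the 5 h NBs lay more than 2 times above the other 5 h NBs. This is 15.6% of the members beside 9.32% of all genes tested. Of these, CR44589, CR44895, CR45157, CR45406, CR45531, CR46066 and CR46145 lie under 5 CPM without the libraries of 3 h. They passed the threshold of inclusion through those libraries, so the share is a description. CR43461, in an intron of CG3168 on the X chromosome, held 24.3, 17.4 and 14.4 CPM in GMCs at 1.5 h, 103 and 49.4 CPM at 3 h and 1.52 and 1.57 CPM at 5 h, and 17.3, 1.88 and 1.02 CPM in the 5 h NBs. CR44895, 8962 bases from it, held 5.25, 3.93 and 3.91 CPM at 1.5 h, 38.4 and 24.6 CPM at 3 h and no count at 5 h in GMCs, and 6.76, 0.209 and 0.102 CPM in the 5 h NBs. CR45620, antisense to sws, rose from 2.59, 4.53 and 2.76 CPM at 1.5 h to 35.8 and 19.4 CPM at 3 h in GMCs (3.06 ± 0.51; edgeR adjusted p = 0.00857), a call lost without replicate 1 of the 3 h GMCs (adjusted p = 0.129). Among the others were CR44589 with 15.4 and 10.8 CPM and CR46066 with 22.2 and 12.2 CPM in the 3 h GMCs.

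Part of the blood cell markers moved with these libraries. The summed level of 5 hemocyte markers was 5.19 to 7.36 CPM in the libraries of 1.5 h, 14.3 to 26.3 CPM in the NBs and 34.9 to 69.3 CPM in the GMCs of 3 h, 41.7 CPM in replicate 1 of the 5 h NBs, 10.7 and 11.5 CPM in the other 5 h NBs and 6.17 and 6.63 CPM in the GMCs of 5 h. At 3 h the transcription factor gene srp made up most of the sum, with a mean of 15.4 CPM in the NBs and 46.8 CPM in the GMCs. The hemocyte genes He and NimC1 stayed under 0.5 CPM in every group mean. Hml went the other way, with a mean of 3.33 CPM in NBs and 0.786 CPM in GMCs at 3 h and 9.14 and 2.60 CPM at 5 h, and was called lower in GMCs at both ages (−2.00 and −1.81; edgeR adjusted p = 0.0141 and 0.00992). The sum of 4 fat body markers reached 85.1 CPM in replicate 3 of the 3 h NBs and 44.9 CPM in replicate 2 of the 3 h GMCs and was at most 10.4 CPM elsewhere. The part of these cells in the profile was not tested. For CR44895 the GMC counts at 5 h were 0 in both libraries and the NB counts 65, 2 and 1. The floor of 3 counts per library corresponds to 0.303 to 0.362 CPM there, so 2 of the NB libraries also lie under it and no fold is given; its call at 5 h was lost without replicate 1 of the NBs or either GMC library (adjusted p up to 0.139).

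Other noncoding genes were set beside the members. Of 12 tested noncoding RNA genes with other names 7, 9 and 3 were called higher in GMCs at 1.5, 3 and 5 h and none lower. Of 2241 CR genes under the threshold 655 were tested, and 43, 50 and 69 were called higher and 5, 2 and 17 lower. These are 6.56%, 7.63% and 10.5% higher and 0.763%, 0.305% and 2.60% lower, each below the share of all genes called in the same direction, and their median log2 fold change was 0.48, 0.52 and −0.07. Within the 122 members, the fold change showed little relation to length or level: Pearson's r with the log2 of the exon length was −0.10, −0.08 and 0.01 over 121 genes, and with the log2 of the mean CPM 0.12, 0.09 and 0.05 over 122 genes. With the share of exon length covered by other genes it was −0.18, −0.15 and −0.11. These are correlations across genes within the same libraries and carry no test. With a trend on gene length over all genes removed, 26, 36 and 44 members were called higher in GMCs at the 3 ages and 8, 4 and 12 lower. For the change of the difference from 1.5 to 5 h 17 were then called higher and 14 lower, and in GMCs of 5 h against 1.5 h 44 and 17. Of the 66 members without any exon overlap 23, 23 and 31 were called higher and 2, 1 and 7 lower, and of the 17 with at least 50% of their exon length overlapped 4, 4 and 5 were called higher and 2, 0 and 1 lower. The 88 members annotated as lncRNA gave 27, 32 and 39 higher and 2, 2 and 10 lower calls, and the 33 annotated as asRNA 5, 5 and 6 higher and 3, 1 and 2 lower. Members were called higher on each chromosome arm at 3 and 5 h, with 5, 7 and 5 of 21 on the X chromosome at 1.5, 3 and 5 h and 10, 11 and 13 of 28 on 3L.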

How the data were processed

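Poly(A) RNA was sequenced from 9 NB and 7 GMC libraries. Raw gene counts were deposited by the authors, 1 file per library; the submitters' processing notes name, without roles, HTSeq 0.6.1 and DESeq2 1.12.4 besides the aligners BWA 0.7.12 and TopHat2 2.1.1, and bedtools 2.26.0. Genome build, strand setting and use of the molecular barcodes are not stated there, so counts may include PCR copies and antisense reads. The authors' deposited comparison tables give a mean normalized signal (counts divided by size factors), a log2 fold change and p-values per gene, per the file headers. Rows that name no gene were left out. Among them, 1.42% to 2.09% of the total per library was listed as ambiguous, so reads over exons of 2 genes may count for neither.

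From the counts, genes were filtered with filterByExpr (minimum count 10, minimum total 15), scaled by TMM and tested with edgeR 4.0.16 (R 4.3.3) in a quasi-likelihood fit over all 6 groups, with Benjamini-Hochberg adjustment over 10913 genes at 0.05; 5451 genes were removed. Of the members 121 were matched to the Ensembl release 115 annotation, 117 at the deposited position; partner genes are coding genes whose span overlaps a member, or the nearest one. On simulated counts 56%, 44% and 49% of 2-fold and 91%, 97% and 92% of 4-fold changes were recovered at 1.5, 3 and 5 h, with 200 of 10548, 10544 and 10549 genes changed. Alternatives were DESeq2 1.42.0, other scalings, no filter, a replicate block, removal of a gene-length trend, a fit of only the groups compared and leaving out each library.

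The members, gene lists and tests were chosen with earlier results of these data known. The 58 members named with values were taken by rule: the 10 highest by CPM per kb and the 5 highest by CPM, the 8 largest changes each way per age among called members without overlap between groups, up to 12 members called at all 3 ages, the 3 largest each way for changes with age, hosts of small RNAs, and 4 examples with at least 50% exon overlap. Floors cover counting error only; standard errors are those of the edgeR fit over libraries.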

Additional observations from a re-analysis of the deposited data

Results flagged for a closer look

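For 21 members the difference between GMCs and NBs itself changed between 1.5 and 5 h at an adjusted p under 0.05 (edgeR, an interaction of cell type and age), on the log2 scale. It moved towards a higher level in GMCs for 9 of them: CR45971 by 2.41, CR42651 by 2.35, CR43910 by 1.84, CR44295 by 1.54, CR46258 by 1.52, CR44949 by 1.51, CR45911 by 1.36, CR46055 by 1.34 and CR44022 by 1.15. CR42651 and CR43910 lie under 5 CPM without the 5 h GMCs and were included through them, so their values are descriptions. So is the value of CR45971, which lies under 5 CPM without the libraries of 5 h. For CR46055 the lower level in GMCs at 1.5 h was no longer called at 5 h.

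It moved towards a lower level in GMCs for 12. The value was −4.14 for CR31451, the host of mir-9381, −3.93 for CR43461, −2.20 for CR46029, −1.70 for CR45923, −1.65 for CR45242, −1.61 for CR31386, −1.34 for CR43685, −1.14 for CR43241, −1.08 for CR46003 and −1.07 for CR43650, the host of mir-8. The fitted values of −3.24 for CR40469 and −9.41 for CR44895 rest on libraries with 4 counts or fewer and on GMC libraries of 5 h without a count, and are no bound on a fold. CR46029 lies under 5 CPM without the 5 h NBs and CR40469 without the libraries of 5 h, so their values are descriptions. The values for CR43461, CR44895, CR44949, CR46003, CR46055 and CR46258 lost their call without replicate 1 of the 5 h NBs, the library that stands apart. Leaving out either GMC library of 5 h ended the calls of CR45242, CR43461, CR43650, CR44022, CR44295, CR44895, CR44949, CR46003, CR46029 and CR46055. Leaving out replicate 1 of them ended those of CR45971 (adjusted p = 0.0529) and CR45923 (adjusted p = 0.0560), and leaving out replicate 2 those of CR43685 (adjusted p = 0.0622), CR43241 (adjusted p up to 0.131) and CR46258 (adjusted p up to 0.222). At least 1 library of 1.5 h, left out alone, also ended the calls of CR43241, CR43461, CR43650, CR44022, CR44295, CR44949, CR46003, CR46029, CR46055 and CR46258, and replicate 2 or 3 of the 5 h NBs those of CR43650, CR44022, CR44949, CR46029 and CR46258. The calls of CR31451, CR45911, CR42651, CR43910, CR31386 and CR40469 held under every alternative run. Those of CR42651, CR43910 and CR40469, included through libraries of 5 h, remain descriptions. Libraries of different ages come from different flow cells, so age and run cannot be told apart.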

How the results depend on the processing

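No named result changed its direction. Of 167 called results of the named members 90 were called under every alternative and 77 were lost under at least 1. The number of members called at 1.5 h was 37 and became 56 when only the groups compared were fitted. At 3 h in NBs it was 0 against 1.5 h, and 6 with only the groups compared and 6 with DESeq2. At 3 h in GMCs it was 5, and 8 with the gene-length trend removed, 30 with only the groups compared and 18 with DESeq2. For the change of the difference from 1.5 to 5 h it was 21, and 33 with DESeq2. The causes were not tested. Leaving out single libraries gave 22 to 31 called members at 1.5 h, 22 to 38 at 3 h, 30 to 57 at 5 h, 8 to 25 for the change to 5 h, 12 to 36 for NBs of 5 h against 1.5 h, 0 to 3 for GMCs of 3 h and 27 to 44 for GMCs of 5 h.

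The replicate numbers were not used to pair the samples. Deviations of same-numbered NB and GMC libraries from their group means correlated between −0.164 and 0.0819. With 2 GMC libraries at 3 and 5 h the deviations of these libraries mirror each other, so the values cannot exclude pairing. With a replicate block 39, 41 and 57 members were called at 1.5, 3 and 5 h, 0 and 25 for the changes of the difference, 0 and 26 in NBs of 3 and 5 h, and 5 and 54 in GMCs. With median-ratio scaling the median of all genes at 3 h was 0.01 and that of the members 0.63, and all calls at 3 h split into 1010 higher and 1380 lower.

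A mean under 10 CPM was found for 55 members, and the GMC groups of 3 and 5 h hold 2 libraries each. CR43650 at 1.5 and 3 h and CR31386 at 1.5 h passed the threshold under some alternatives only.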
